A study of Homo sapiens with 4 samples.

Results

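The genes described here encode the DNA replication machinery: 43 genes for origin binding, helicase loading and activation, DNA synthesis, the sliding clamp, strand joining and nucleotide supply. They were taken by name from the deposited expression table of 28729 genes, and all 43 were found in it. The cells were TU-177, an established line of human laryngeal squamous cell carcinoma (LSCC). The study knocked down SKA3, a subunit of the SKA complex that joins kinetochores to spindle microtubules in mitosis. The comparison shows how the transcripts of the replication genes stood in cells with less SKA3. Of the 4 RNA-seq libraries, 2 came from cells with a negative control shRNA (NC) and 2 from cells with an shRNA against SKA3 (SKA3-KD), numbered 1 and 2 in each group. All libraries came from cells that had received a lentivirus, were grown with 10% serum, and were selected with puromycin added 48 h after transduction. Only 1 cell line was used, and the labels do not say how many shRNA sequences were used or whether the libraries of a group were separate cultures. The p-values therefore measure the spread between these libraries, which may be technical.

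SKA3 was 9.40 and 9.64 FPKM in the NC libraries and 3.77 and 4.12 FPKM in the SKA3-KD libraries. FPKM is the number of sequenced fragments divided by exon length and by library size. MKI67, the gene of the Ki-67 proliferation antigen, was 37.9 and 37.1 FPKM in NC and 39.4 and 38.2 FPKM in SKA3-KD. Of the squamous epithelial markers, SFN lay between 133 and 155 FPKM with overlapping groups. KRT17 was 45.6 and 49.1 FPKM in NC and 29.4 and 35.7 FPKM in SKA3-KD, and it fell by the test given below (log2 difference -0.53, limma adjusted p = 0.0396). KRT5, KRT14 and TP63, which define basal squamous cells, and the keratin KRT6A stayed at or below 0.580 FPKM in every library. The leukocyte markers PTPRC, CD68 and LYZ and the endothelial markers CDH5 and VWF were at or near 0. Of the fibroblast markers, COL1A2 and LUM were near 0. DCN was 8.40 and 8.36 FPKM in NC and 2.48 and 2.35 FPKM in SKA3-KD, and it fell (log2 difference -1.46, limma adjusted p = 0.0065). COL1A1 was 3.22 and 3.99 FPKM in NC and 2.71 and 2.66 FPKM in SKA3-KD, without overlap (limma adjusted p = 0.140). COL3A1, under the filter on low values, was 0.797 and 0.765 FPKM in NC and 0.476 and 0.361 FPKM in SKA3-KD, and PDGFRB was 2.88 and 2.46 FPKM in NC and 3.19 and 4.13 FPKM in SKA3-KD, which did not pass the test. The part of these marker differences in the results below was not tested.

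A cell prepares to copy its DNA by loading the MCM2-7 helicase onto origins that the origin recognition complex (ORC) has bound, with CDC6 and CDT1 as loaders and geminin as a brake on CDT1. In S phase CDC45 and the GINS complex join MCM2-7 to form the active helicase. Polymerase alpha-primase then starts each strand, polymerases delta and epsilon extend it on the PCNA clamp, and FEN1 and LIG1 finish the Okazaki fragments. Many of these genes are transcribed as cells enter S phase under E2F factors, and ribonucleotide reductase supplies the deoxynucleotides.

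In the SKA3-KD libraries 3 replication genes were higher and 3 were lower. RRM2, MCM6 and POLE rose, and FEN1, POLE2 and GINS3 fell. Each direction held 6.98% of the 43 genes. Over the 12645 genes with a mean of at least 1 FPKM, which all 43 replication genes reached, 6.16% were higher and 6.11% were lower by the same test, so the share of the replication genes lay near that of the whole table. The test was limma on log2(FPKM + 1), with p-values adjusted by the Benjamini-Hochberg method over the 12645 genes and a threshold of 0.05. The median log2 difference was 0.02 for the replication genes and 0.01 for all genes tested. The size of the difference without its sign had a median of 0.144 for the replication genes and 0.168 for all genes. The replication genes also had a higher median level, 21.9 FPKM against 6.43 FPKM. Their replicates differed less, by a median of 0.0868 in NC and 0.0669 in SKA3-KD, against 0.11 and 0.0966 for all genes. The part of level and replicate spread in the smaller median was not tested. Taken against the NC mean, the median of the 43 genes was -0.00777 for SKA3-KD replicate 1 and 0.00486 for replicate 2, so neither library was shifted as a whole.

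**Figure D1:**
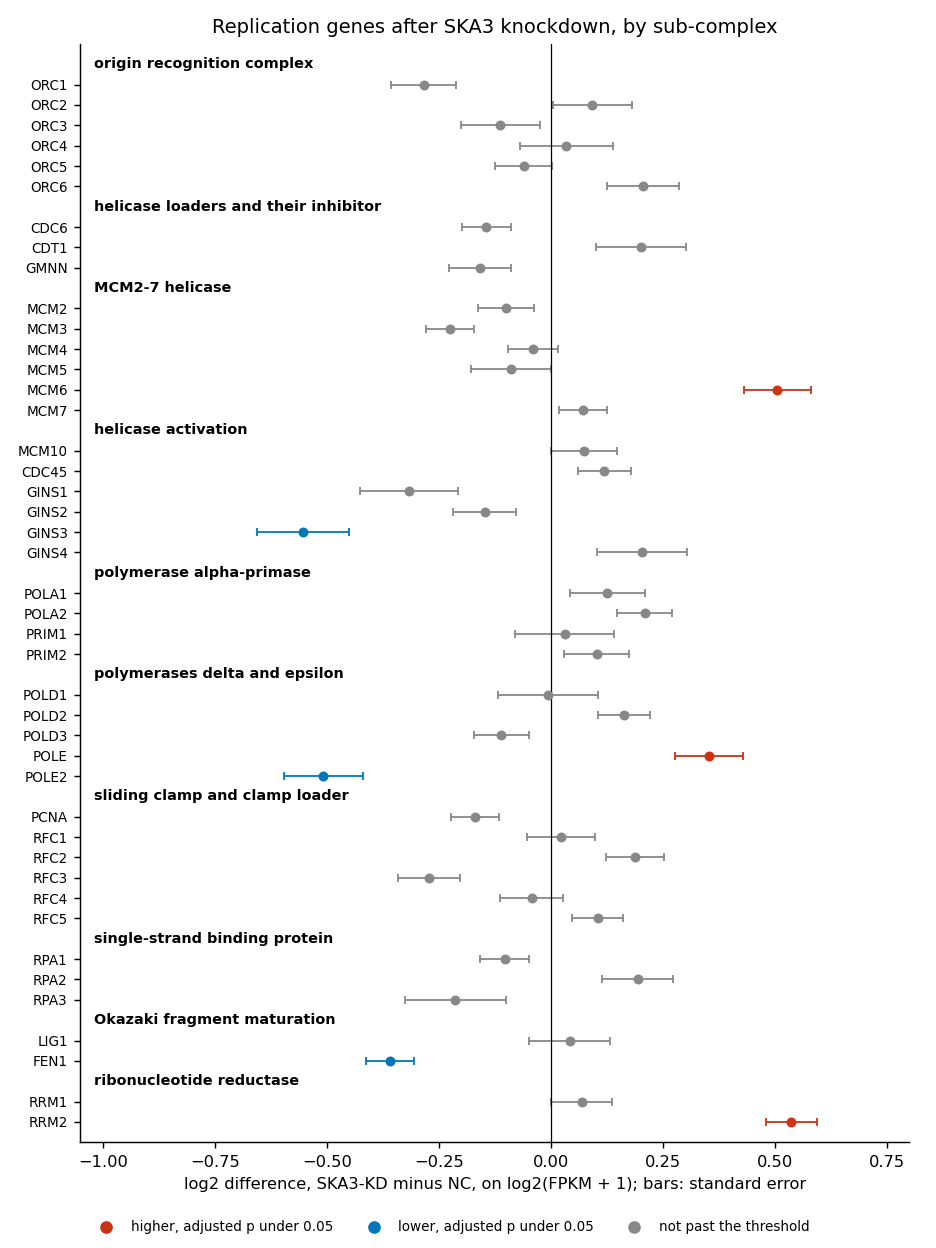
Log2 difference between SKA3-KD and NC for the 43 replication genes, grouped by sub-complex. Points are the differences on the log2(FPKM + 1) scale, bars are standard errors over 2 libraries a group, and colours mark genes with an adjusted p under 0.05. RRM2, MCM6 and POLE lie to the right, and FEN1, POLE2 and GINS3 to the left, of the other genes of their own sub-complexes.

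Groups that did not overlap, with both libraries of one group above both of the other, were found for 15 genes lower in SKA3-KD and 15 higher, or 34.9% of the members each. Over all genes tested the same was true of 29.2% lower and 32.3% higher. The remaining 13 replication genes overlapped. At an unadjusted p under 0.05, 9 members were lower and 7 higher, which is 37.2% of the members against 31.3% of all genes tested. An exact permutation test of 2 against 2 libraries can give no p below 0.333, so single genes rest on the spread that limma shares over all genes. With any 1 of the 4 libraries left out, limma called 0 of the 43 genes, while 5 to 6 lower and 3 to 6 higher had an unadjusted p under 0.05. The whole-table calls then fell to between 0 and 135 lower and between 0 and 46 higher.

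Because the changed genes went in both directions, their promoter windows are shown here so that they can be set side by side. The windows are RefSeq sequences of GRCh38.p14, with 250 bases before and 50 after the annotated start, printed 5′ to 3′ on the gene's strand. Capitals mark an E2F octamer (TTTGGCGC, TTTGCCGC, TTTCGCGC or TTTCCCGC) or a CCAAT box (CCAAT), on either strand, with overlapping matches run together. The 3 genes that rose were RRM2 at chr2:10122489-10122788 on the plus strand, MCM6 at chr2:135876394-135876693 on the minus strand and POLE at chr12:132687293-132687592 on the minus strand.
RRM2: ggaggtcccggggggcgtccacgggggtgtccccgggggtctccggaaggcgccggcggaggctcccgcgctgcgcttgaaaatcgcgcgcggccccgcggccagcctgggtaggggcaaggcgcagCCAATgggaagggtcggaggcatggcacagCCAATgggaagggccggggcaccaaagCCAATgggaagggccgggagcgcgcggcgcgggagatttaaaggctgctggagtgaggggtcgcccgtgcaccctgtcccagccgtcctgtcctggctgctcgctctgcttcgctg
MCM6: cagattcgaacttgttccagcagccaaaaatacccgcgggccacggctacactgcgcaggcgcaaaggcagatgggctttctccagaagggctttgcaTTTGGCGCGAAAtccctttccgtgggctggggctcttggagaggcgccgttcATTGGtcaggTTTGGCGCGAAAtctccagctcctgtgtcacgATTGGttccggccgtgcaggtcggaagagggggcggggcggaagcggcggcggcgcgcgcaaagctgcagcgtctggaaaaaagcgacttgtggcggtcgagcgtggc
POLE: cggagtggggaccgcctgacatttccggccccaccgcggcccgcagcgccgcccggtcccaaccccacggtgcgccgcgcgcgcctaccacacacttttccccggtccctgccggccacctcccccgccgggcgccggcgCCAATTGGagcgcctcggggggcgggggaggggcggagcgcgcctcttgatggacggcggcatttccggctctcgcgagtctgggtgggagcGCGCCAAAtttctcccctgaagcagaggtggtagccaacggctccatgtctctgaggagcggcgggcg
The 3 genes that fell were FEN1 at chr11:61792661-61792960 on the plus strand, POLE2 at chr14:49688165-49688464 on the minus strand and GINS3 at chr16:58392221-58392520 on the plus strand.
FEN1: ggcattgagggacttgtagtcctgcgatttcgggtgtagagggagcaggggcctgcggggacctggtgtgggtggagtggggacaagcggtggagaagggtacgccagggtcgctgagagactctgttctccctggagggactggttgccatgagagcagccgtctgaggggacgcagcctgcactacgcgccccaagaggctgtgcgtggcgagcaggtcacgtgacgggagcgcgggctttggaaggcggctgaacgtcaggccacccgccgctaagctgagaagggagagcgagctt
POLE2: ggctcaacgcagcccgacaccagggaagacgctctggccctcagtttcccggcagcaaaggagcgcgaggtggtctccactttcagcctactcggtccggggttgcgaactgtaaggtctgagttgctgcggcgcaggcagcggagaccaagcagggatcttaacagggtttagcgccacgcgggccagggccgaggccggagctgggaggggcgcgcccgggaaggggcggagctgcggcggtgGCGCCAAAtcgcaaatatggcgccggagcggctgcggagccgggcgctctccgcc
GINS3: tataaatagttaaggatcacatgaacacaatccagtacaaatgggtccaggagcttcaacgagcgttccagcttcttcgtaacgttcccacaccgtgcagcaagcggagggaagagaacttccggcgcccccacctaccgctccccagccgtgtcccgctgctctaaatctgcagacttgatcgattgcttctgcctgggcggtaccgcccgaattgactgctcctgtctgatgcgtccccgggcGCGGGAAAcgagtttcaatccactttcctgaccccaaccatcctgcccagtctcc

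All 3 windows of the genes that rose held a CCAAT box, the site of the NF-Y factor. Of the 3 windows of the genes that fell, 0 held one. This split depends on the fit used. MCM3, ORC1, GINS1 and RFC3 were also called lower in some of the alternative fits described below, and of these only RFC3 lacked a CCAAT box. A link between the boxes and the direction of change was not tested. RRM2 had 3 CCAAT boxes, at 123, 93 and 66 bases before the start. E2F octamers were found on both sides, in MCM6 and POLE among the genes that rose and in POLE2 and GINS3 among those that fell. In POLE2 and in GINS3 the octamer began 5 bases before the start. The FEN1 window held neither motif. A window was found for 37 of the 43 replication genes, and of these 17 (45.9%) held an E2F octamer and 22 (59.5%) a CCAAT box. Among all 35116 windows the shares were 3.31% and 34.6%. The cell cycle homology region TTTGAA, searched on both strands, was in 1 of the 37 windows, that of RRM1, and in 15.2% of all windows. Windows for MCM4, MCM5, GINS4, POLD3, RPA2 and RPA3 were not analysed here. Among the 31 windows of genes that did not pass the test, 13 held an E2F octamer and 19 a CCAAT box. These matches describe letters in a short window, and the median GC content of the members' windows was 65.0% against 58.7% for all.

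Ribonucleotide reductase makes deoxynucleotides from ribonucleotides with a large subunit, RRM1, and a small subunit, RRM2, whose level follows S phase. RRM2 was 36.5 and 36.4 FPKM in NC and 54.6 and 52.1 FPKM in SKA3-KD. The groups were far apart, and RRM2 rose by 46.3% (log2 difference 0.54, SE 0.057, n = 2 a group, limma adjusted p = 0.0129). RRM1 was 75.4 and 68.5 FPKM in NC and 76.1 and 74.7 FPKM in SKA3-KD, where the groups overlapped (log2 difference 0.07, limma adjusted p = 0.535). The ratio of RRM2 to RRM1 was 0.484 and 0.532 in NC and 0.718 and 0.697 in SKA3-KD, so the small subunit gained on the large one in both libraries. RRM2 was the member with the largest rise in this fit. It was also the one called under each of the 7 alternatives that kept all 4 libraries. In the annotation RRM2 shares 20.2% of its exon bases with AC007240.1 on the same strand, and pseudogenes RRM2P2, RRM2P3 and RRM2P4 are listed, so reads could be split among them.

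**Figure D2:**
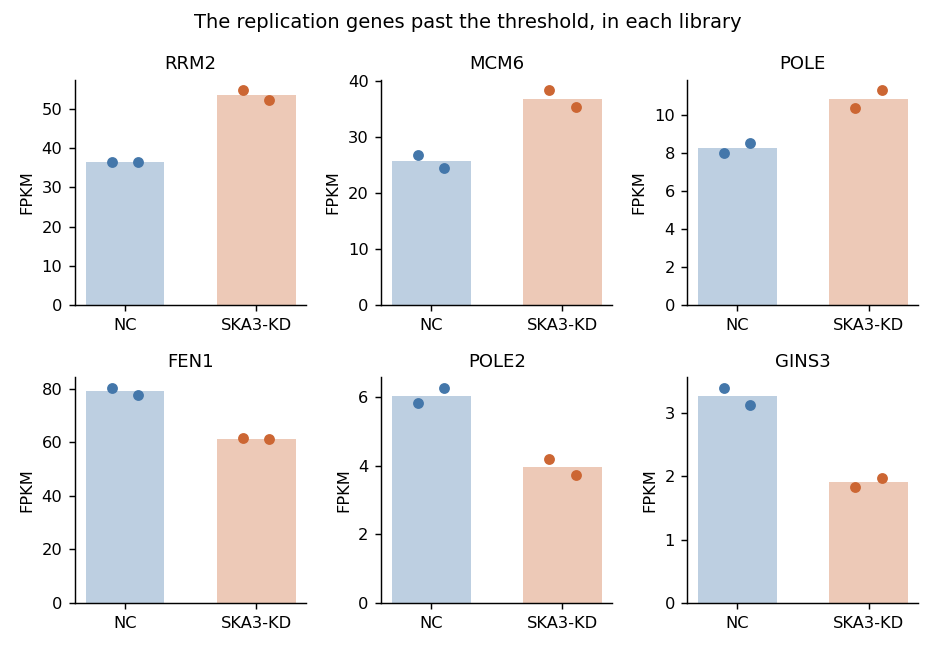
FPKM in each library for the 6 replication genes that passed the test. Points are libraries, bars are the means of 2 libraries, and the vertical axes start at 0 and differ between panels. The 2 libraries of a group lie close together in every panel and the groups do not overlap, with RRM2, MCM6 and POLE higher and FEN1, POLE2 and GINS3 lower in SKA3-KD.

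The MCM2-7 helicase is a ring of 6 different subunits, each present in 1 copy. MCM6 was the subunit whose transcript changed. It was 26.9 and 24.6 FPKM in NC and 38.4 and 35.5 FPKM in SKA3-KD, a rise of 43.6% (log2 difference 0.51, SE 0.075, n = 2 a group, limma adjusted p = 0.0231). The other 5 subunits did not pass the test. MCM3 was 90.6 and 88.5 FPKM in NC and 75.3 and 77.6 FPKM in SKA3-KD, and although the groups were apart by more than their spread its adjusted p was 0.0571 by limma (log2 difference -0.23, SE 0.054). MCM3 passed the threshold in 4 of the 7 alternatives that kept all libraries, with adjusted p from 0.00969 to 0.124 over the 7.

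MCM2 was 101 and 107 FPKM in NC and 94.7 and 99.2 FPKM in SKA3-KD, and the groups did not overlap. AC023593.1 on the opposite strand shares 22.7% of the MCM2 exon bases. MCM4 was 64.3 and 63.2 FPKM in NC and 63.4 and 60.6 FPKM in SKA3-KD, and MCM5 was 21.5 and 23.8 FPKM in NC and 19.9 and 22.5 FPKM in SKA3-KD. The groups of MCM4 and of MCM5 overlapped. MCM7, the most abundant replication transcript here, was 121 and 124 FPKM in NC and 127 and 131 FPKM in SKA3-KD. The log2 differences of MCM2, MCM4, MCM5 and MCM7 lay between -0.10 and 0.07.

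Summed over the 6 subunits, MCM2-7 came to 424 and 432 FPKM in NC and 418 and 426 FPKM in SKA3-KD, and the groups of that sum overlapped. The share of MCM6 in that sum was 6.33% and 5.69% in NC and 9.17% and 8.33% in SKA3-KD. The share of MCM3 was 21.3% and 20.5% in NC and 18.0% and 18.2% in SKA3-KD. By FPKM, MCM5 and MCM6 were the lowest subunits in every library, with MCM6 above MCM5 in each. This order and the size of the shares depend on the exon length used, 7338 bases for MCM5 and 4118 bases for MCM6. In recovered reads MCM5 lay above MCM6 in both NC libraries and in SKA3-KD replicate 2, and below it in SKA3-KD replicate 1.

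**Figure D3:**
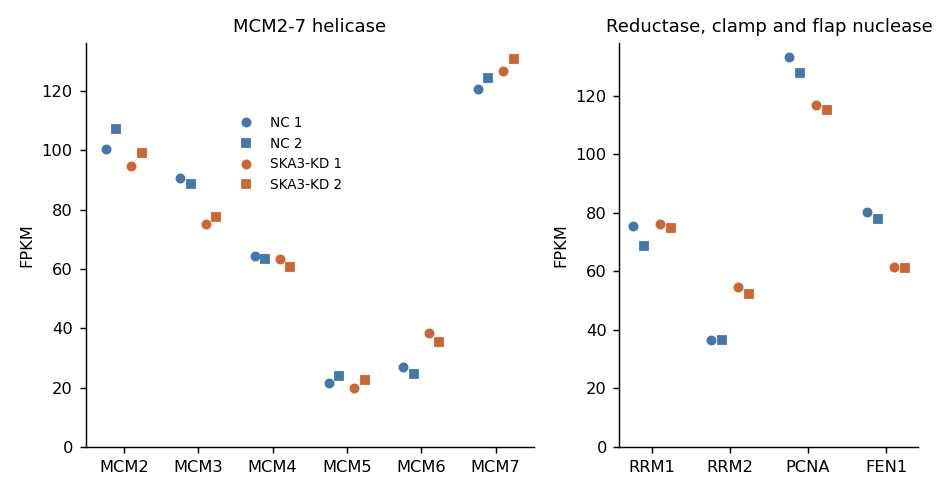
FPKM in each library for the MCM2-7 subunits (left) and for RRM1, RRM2, PCNA and FEN1 (right). Each symbol is 1 library, with NC in blue, SKA3-KD in orange, replicate 1 as a circle and replicate 2 as a square, and both axes start at 0. MCM6 and RRM2 are higher and FEN1 is lower in both SKA3-KD libraries, beside RRM1, MCM4 and MCM5 whose groups overlap.

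The loaded helicase is activated by CDC45 and the GINS complex of GINS1, GINS2, GINS3 and GINS4, with MCM10 acting in the same step. GINS3 fell by 41.6%. It was 3.39 and 3.13 FPKM in NC and 1.83 and 1.98 FPKM in SKA3-KD (log2 difference -0.55, SE 0.10, n = 2 a group, limma adjusted p = 0.0349). GINS3 was the least abundant of the 43 transcripts, with 95 to 207 reads a library as recovered from the FPKM steps. AC009118.2 on the opposite strand shares 10.9% of its exon bases.

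GINS1 was 9.69 and 10.1 FPKM in NC and 8.63 and 6.94 FPKM in SKA3-KD. Its adjusted p was 0.126 by limma (log2 difference -0.32). GINS2, at 19.5 and 18.0 FPKM in NC and 17.2 and 16.4 FPKM in SKA3-KD, did not pass either (log2 difference -0.15). GINS4 had the opposite sign (log2 difference 0.20, limma adjusted p = 0.234). It was 4.53 and 4.66 FPKM in NC and 5.96 and 4.97 FPKM in SKA3-KD. AC009630.2 on the opposite strand shares 21.2% of the GINS4 exon bases. Within the summed GINS FPKM the share of GINS3 was 9.13% and 8.72% in NC and 5.44% and 6.52% in SKA3-KD. That of GINS4 was 12.2% and 13.0% in NC and 17.7% and 16.4% in SKA3-KD. CDC45 was 23.3 and 22.3 FPKM in NC and 24.9 FPKM in both SKA3-KD libraries, with groups that did not overlap and an adjusted p of 0.237 by limma. MCM10 had a log2 difference of 0.07.

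Polymerase epsilon, which copies the leading strand, has POLE as its catalytic subunit and POLE2 as its second subunit. Their transcripts moved in opposite directions. POLE was 7.97 and 8.54 FPKM in NC and 10.4 and 11.3 FPKM in SKA3-KD, a rise of 31.2% (log2 difference 0.35, SE 0.076, n = 2 a group, limma adjusted p = 0.0475). POLE2 was 5.83 and 6.27 FPKM in NC and 4.19 and 3.73 FPKM in SKA3-KD, so it fell by 34.5% (log2 difference -0.51, SE 0.088, n = 2 a group, limma adjusted p = 0.0303). The ratio of POLE to POLE2 was 1.37 and 1.36 in NC and 2.48 and 3.02 in SKA3-KD. POLE lay just inside the threshold and was lost with median-of-ratios scaling (adjusted p = 0.0535), over a range of 0.00069 to 0.116 in the 7 alternatives with all libraries. The small subunits POLE3 and POLE4, read from a second list, had log2 differences of 0.08 and 0.15 and did not pass.

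Polymerase delta copies the lagging strand. POLD1, its catalytic subunit, was 13.8 and 16.6 FPKM in NC and 14.2 and 16.1 FPKM in SKA3-KD, with overlapping groups (log2 difference -0.01). POLD2 was 78.2 and 82.4 FPKM in NC and 88.8 and 91.4 FPKM in SKA3-KD (log2 difference 0.16, limma adjusted p = 0.131). POLD3 had a log2 difference of -0.11. The 4 subunits of polymerase alpha-primase, POLA1, POLA2, PRIM1 and PRIM2, had log2 differences between 0.03 and 0.21, and 0 of the 4 passed the limma test. At an unadjusted p under 0.05 only POLA2 did, at 14.2 and 13.5 FPKM in NC and 16.2 and 16.1 FPKM in SKA3-KD (limma adjusted p = 0.0921). Limma voom on recovered reads called 0 of the 4. In the annotation POLA2 shares 35.1% of its exon bases with AP000944.2 on the same strand. PRIM1 shares 14.9% with AC117378.1 and POLD1 8.6% with AC020909.1, also on the same strand, and a pseudogene POLD2P1 is listed.

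FEN1, the nuclease that trims the flaps between Okazaki fragments, was 80.2 and 77.8 FPKM in NC and 61.4 and 61.2 FPKM in SKA3-KD. It fell by 22.3%, with libraries of each group nearly equal (log2 difference -0.36, SE 0.053, n = 2 a group, limma adjusted p = 0.0227). TMEM258 on the opposite strand shares 6.7% of the FEN1 exon bases and FADS2 on the same strand 2.0%, and a pseudogene FEN1P1 is listed. LIG1, the ligase that seals the fragments, was 4.46 and 5.16 FPKM in NC and 4.92 and 5.03 FPKM in SKA3-KD, with overlapping groups (log2 difference 0.04).

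PCNA, the clamp that tethers the polymerases and binds FEN1, was 133 and 128 FPKM in NC and 117 and 115 FPKM in SKA3-KD. Its groups did not overlap, but it missed the threshold (log2 difference -0.17, SE 0.054, limma adjusted p = 0.108). The ratio of PCNA to FEN1 was 1.66 and 1.64 in NC and 1.90 and 1.88 in SKA3-KD, so FEN1 was lower relative to the clamp as well. Pseudogenes PCNAP1, PCNAP3 and PCNAP4 are listed in the annotation. Of the clamp loader subunits, RFC3 was 26.2 and 25.4 FPKM in NC and 22.2 and 20.3 FPKM in SKA3-KD (log2 difference -0.27, limma adjusted p = 0.0672). RFC2 was 34.0 and 35.5 FPKM in NC and 41.2 and 38.3 FPKM in SKA3-KD (log2 difference 0.19, limma adjusted p = 0.129). RFC1, RFC4 and RFC5 had log2 differences between -0.04 and 0.10. RFC3 passed the threshold in 2 of the 7 alternatives with all libraries, the replicate block and limma voom. Pseudogenes RFC3P1 and RFC5P1 are also listed.

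The single-strand binding protein RPA coats the unwound template. Its subunits differed in sign, with log2 differences of -0.10 for RPA1, 0.19 for RPA2 and -0.21 for RPA3, and 0 of the 3 passed limma at the adjusted or the unadjusted threshold. Limma voom on recovered reads also called 0 of the 3. For RPA2 the annotation lists pseudogenes RPA2P1, RPA2P2 and RPA2P3.

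At origins, 0 of the 6 ORC subunits passed the limma test, 2 had an unadjusted p under 0.05, and limma voom called 1 of them, ORC1. ORC1, the subunit that varies with the cell cycle, was 14.3 and 15.5 FPKM in NC and 11.7 and 12.4 FPKM in SKA3-KD (log2 difference -0.28, SE 0.073, limma adjusted p = 0.0683). ORC6 was 9.13 and 8.80 FPKM in NC and 11.1 and 9.90 FPKM in SKA3-KD (log2 difference 0.21, limma adjusted p = 0.159). ORC2, ORC3, ORC4 and ORC5 lay between -0.11 and 0.09. Their levels were low beside the MCM genes, with means from 3.25 to 13.5 FPKM over the 6 subunits.

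Among the loaders, CDC6 was 37.4 and 38.3 FPKM in NC and 34.1 and 34.2 FPKM in SKA3-KD (log2 difference -0.14, limma adjusted p = 0.154). CDT1 was 23.8 and 27.9 FPKM in NC and 28.3 and 31.4 FPKM in SKA3-KD (log2 difference 0.20, limma adjusted p = 0.242). GMNN, which encodes geminin, was 32.9 and 33.1 FPKM in NC and 31.0 and 28.1 FPKM in SKA3-KD (log2 difference -0.16, limma adjusted p = 0.196). The ratio of CDT1 to GMNN was 0.722 and 0.845 in NC and 0.913 and 1.12 in SKA3-KD, without overlap, although neither gene passed on its own.

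**Figure D4:**
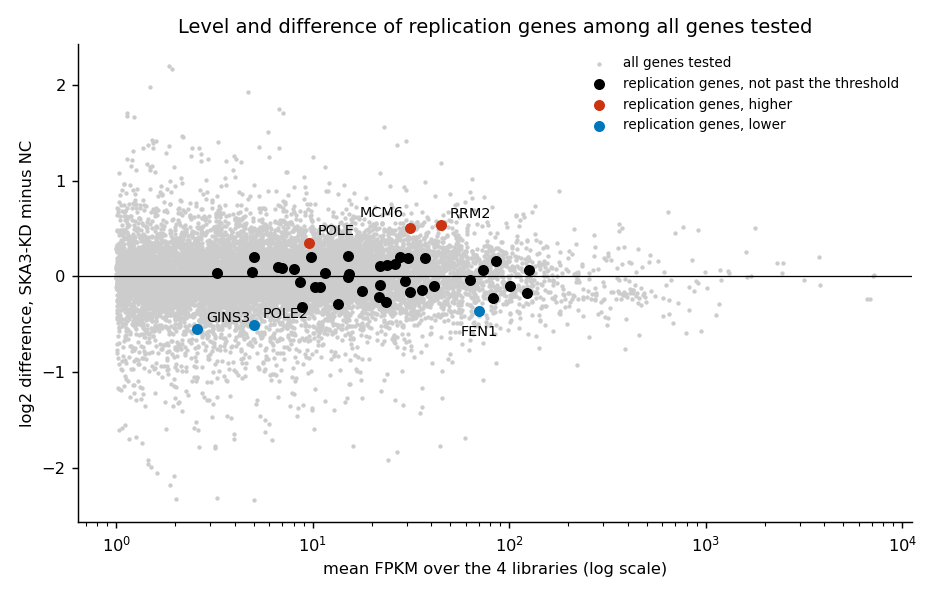
Mean FPKM over the 4 libraries (horizontal, log scale) and log2 difference between SKA3-KD and NC (vertical) for all 12645 genes tested, in grey, with the 43 replication genes as large points. Replication genes past the threshold are named and coloured, red for higher and blue for lower. The replication genes range from 2.58 FPKM (GINS3) to 126 FPKM (MCM7) and lie within the grey cloud, on both sides of 0.

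The list of other replication genes held 45 genes found in the table, of which 44 were tested, and 2 of these fell and 4 rose. This was 4.55% and 9.09% of the list, against the 6.11% and 6.16% of all genes tested. CCNE1, cyclin E1, which drives entry into S phase with CDK2, was 14.8 and 12.8 FPKM in NC and 10.2 and 9.44 FPKM in SKA3-KD (log2 difference -0.45, SE 0.091, limma adjusted p = 0.0407). Of the 3 subunits of RNase H2, which removes ribonucleotides from DNA, RNASEH2A rose and RNASEH2C fell. RNASEH2A was 42.0 and 44.6 FPKM in NC and 62.5 and 56.8 FPKM in SKA3-KD (log2 difference 0.45, SE 0.073, limma adjusted p = 0.0265). RNASEH2C was 21.6 and 22.0 FPKM in NC and 17.2 and 15.6 FPKM in SKA3-KD (log2 difference -0.39, SE 0.071, limma adjusted p = 0.0335). RNASEH2B had a log2 difference of -0.15 and did not pass.

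DTYMK, the thymidylate kinase of the dTTP pathway, was 22.0 and 23.8 FPKM in NC and 30.0 and 30.3 FPKM in SKA3-KD (log2 difference 0.39, SE 0.065, limma adjusted p = 0.0286). CHTF18, a subunit of an alternative clamp loader, was 13.3 and 14.2 FPKM in NC and 17.5 and 18.9 FPKM in SKA3-KD (log2 difference 0.38, SE 0.073, limma adjusted p = 0.0364). The other alternative clamp loader genes listed, DSCC1, CHTF8 and ATAD5, had log2 differences of -0.05, 0.03 and 0.33 and did not pass in limma. The groups of DSCC1 and of CHTF8 overlapped, and those of ATAD5 did not. TOP1, the topoisomerase that relaxes DNA ahead of the fork, was 47.1 and 45.9 FPKM in NC and 57.5 and 54.8 FPKM in SKA3-KD (log2 difference 0.27, SE 0.058, limma adjusted p = 0.0480). Like RRM2, DTYMK acts in nucleotide supply, but 6 of the 7 genes of that group on this list did not pass, and the group's median log2 difference was -0.06.

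Other genes often read as markers of proliferation or S phase did not pass the test. TOP2A was 92.5 and 83.2 FPKM in NC and 102 and 95.2 FPKM in SKA3-KD (log2 difference 0.17, limma adjusted p = 0.210). TK1 was 79.5 and 88.6 FPKM in NC and 81.1 and 88.2 FPKM in SKA3-KD, with overlapping groups (log2 difference 0.01). TYMS, CDC7 and DBF4, which encode thymidylate synthase and the subunits of the kinase that fires origins, had log2 differences of -0.09, -0.18 and 0.16, and none of these 3 passed in limma at the adjusted or the unadjusted threshold. The groups of TYMS, CDC7 and DBF4 did not overlap, with TYMS and CDC7 lower and DBF4 higher in SKA3-KD. POLD4 fell under the filter at a mean of 0.687 FPKM, and UHRF1 was not analysed here.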

How the data were processed

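Trizol-extracted RNA of TU-177 cells was sequenced on an Illumina HiSeq instrument. The authors deposited FPKM values for 28729 genes by Ensembl identifier, already divided by gene length and library size. The submitters' processing notes name Bowtie2 2.2.8, HISAT2, StringTie 1.3.1, Cuffdiff 2.1.1 and the build hg19, without saying which made the table, and whether counting used strand is not given in the sources used here. Libraries were mapped to groups by their labels. Symbols came from a list of gene names for 27043 of the 28729 genes, and from GENCODE 29 (GRCh38) or the identifier for the rest. Positions and annotated exon lengths came from GENCODE 29, and promoter windows from RefSeq (GRCh38.p14, the first window listed for a gene). GRCh38 is not the build of the notes, so no coordinate was taken from the deposited table.

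SKA3-KD was compared with NC by limma 3.58.1 in R 4.3.3 (lmFit, then eBayes with trend set) on log2(FPKM + 1) for the 12645 genes averaging at least 1 FPKM. A difference on this scale understates the change of low genes. The table held no counts. Whole reads were recovered from the FPKM steps for 99.9% of the genes tested (within 0.01 of a whole read), for 61.3% at the annotated exon length and for the rest at a length searched for, which can be a multiple of the true one. That recovery used library sizes inferred beforehand from the FPKM steps, of 11966130 and 9015056 reads (NC) and 10177854 and 11793604 reads (SKA3-KD). The recovered reads on genes exceeded these sizes, so among the fits to these data they were used only in an alternative with limma voom. The 4 libraries limit the precision, and the members held 95 to 6766 recovered reads a library. These reads were recovered at the annotated length for 26 members and at a searched length for 17.

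The alternatives were a pseudocount of 0.1, no filter, median-of-ratios scaling, quantile normalization, no mean-variance trend, a replicate block, limma voom and leaving out each library. The fits were tested on simulated data, where both methods recovered the size and sign of the changes put in. In that simulation limma on log2(FPKM + 1) made more false calls than its threshold allows, while limma voom did not. The simulation took its means and library sizes from these data but used a fixed spread between replicates. It therefore cannot give the share of false calls of either method in these libraries. All 43 members were accounted for. Values in every library were fixed for those past the threshold and for PCNA, MCM2 to MCM7, CDC45, RRM1 and RRM2, and given for others where a sub-complex was described. On the second list the genes past the threshold were named with TOP2A, TYMS, TK1, CDC7 and DBF4. Beside these, POLE3, POLE4, RNASEH2B, DSCC1, CHTF8 and ATAD5 were added, after their values were seen, to complete their complexes or groups. The members and lists were chosen with earlier results of these data known. DSG3, CD3E and PECAM1 were not analysed here, and the values of some other listed genes are not reported here. Other steps ran in Python 3.11.15 (numpy 2.4.6, pandas 2.3.3, matplotlib 3.10.9).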

Additional observations from a re-analysis of the deposited data

How the results depend on the processing

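Over the 11 alternatives the 6 genes past the threshold kept their sign. With all 4 libraries, RRM2 was called in 7 of 7 alternatives, GINS3 in 6, MCM6, POLE2 and FEN1 in 5 and POLE in 4. MCM3, ORC1, RFC3 and GINS1 were called in at least 1 alternative only. Calls over the whole table were 81 lower and 48 higher without a filter, 381 and 312 without a mean-variance trend, 1642 and 1622 with limma voom on the recovered reads, and 0 to 135 and 0 to 46 with 1 library left out. Among the 43 replication genes these settings called 0 lower and 1 higher without a filter (9 and 6 at an unadjusted p under 0.05), 1 and 1 without a trend, and 7 and 3 with voom. With 1 library left out, limma called 0 in either direction, and 5 to 6 lower and 3 to 6 higher had an unadjusted p under 0.05. Among the other replication genes limma called 0 lower and 0 higher without a filter (4 and 8 at an unadjusted p under 0.05). Without a trend limma called 0 and 0 of them (3 and 7 unadjusted), and voom called 3 lower and 8 higher. Fewer libraries enter the fits that leave 1 out, and without a filter p-values are adjusted over 26504 genes. The cause of the other shifts was not tested.

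The labels do not say that a replicate number marks a shared culture, and across 12645 genes the deviations of same-numbered libraries had a Pearson correlation of r = 0.0973 and a Spearman correlation of rho = 0.223. A fit with the replicate block called 965 genes lower and 1002 higher over the whole table, and 6 replication genes lower and 3 higher, adding ORC1, MCM3 and RFC3.

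The signs of 7 small differences that did not pass changed when 1 library was left out. Their values then ranged from -0.0366 to 0.106 for ORC4, -0.109 to 0.172 for PRIM1, -0.131 to 0.118 for POLD1, -0.0524 to 0.0973 for RFC1, -0.108 to 0.0228 for RFC4, -0.0451 to 0.129 for LIG1 and -0.000133 to 0.138 for RRM1. The median log2 difference of a sub-complex moved beyond the spread between libraries in 17 of 110 cases. For ORC it was -0.0241 with median-of-ratios scaling and -0.00254 with quantile normalization. With 1 library left out the medians ranged from -0.038 to 0.000366 for ORC, -0.16 to -0.0897 for the loaders, -0.0867 to -0.0343 for MCM2-7, -0.0938 to 0.0204 for helicase activation, 0.06 to 0.187 for polymerase alpha-primase, -0.109 to 0.118 for polymerases delta and epsilon, and -0.08 to 0.0601 for the clamp and its loader.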
